A study of Mus musculus with 6 samples.

Results

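The genes that move calcium in cardiac myocytes were followed in hearts of male mice with and without an active human SRY transgene. The members were 10 genes, Atp2a2, Ryr2, Pln, Sln, Casq1, Casq2, Slc8a1, Hrc, Cacna1c and Jph2, and they were found by their gene symbol in the table of bead intensities. They were read by 15 probes of the 25697 probes on the array, which carry 18138 gene symbols. Of these, 11 probes of 9 genes were detected on at least 3 of the 6 arrays (detection p-value under 0.05) and were tested, as were 12970 probes in all. The 4 probes of Cacna1c were not.

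There were 3 hSRY-ON and 3 hSRY-OFF hearts, all from male pups at postnatal day 6. FVB was the labelled strain, and the methods give an FVB/N background. RNA came from dissected hearts, and the methods do not say whether each was used whole. In hSRY-ON mice a single-copy transgene, driven by the ubiquitous CAG promoter, had been switched on by Cre recombinase already present in the egg, so that human SRY (the testis-determining factor of the Y chromosome) and EGFP were made throughout the body. The hSRY-ON mice were chosen so that they did not carry the Ddx4-Cre transgene themselves. The methods define hSRY-OFF as mice whose transgene was not recombined, whereas the control littermates are described elsewhere in the study as having Ddx4-Cre only or no transgene. The genotype of the 3 controls is therefore not settled, and the level of the transgene was not measured here. The study reports that hSRY-ON pups grew more slowly, suckled little and lacked milk in the stomach. By postnatal day 6 a part of them had died, and selected hearts had white patches with dying cells. Growth, feeding and illness thus differed together with the transgene, and their parts in the results cannot be told apart.

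In a cardiac myocyte each beat begins with calcium entering through the L-type channel, which opens the ryanodine receptor of the sarcoplasmic reticulum and releases the calcium stored there. The pump SERCA then returns calcium to the store, where it is held by calcium-binding proteins, and the sodium/calcium exchanger removes the rest from the cell. Small membrane proteins set the speed of the pump, and junctophilin holds the cell membrane and the store close together.

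Of the 11 tested probes, 7 were lower in hSRY-ON hearts and 0 were higher (limma, Benjamini-Hochberg adjusted p under 0.05 over all 12970 probes), and 7 had an unadjusted p under 0.05. Over all tested probes 13.7% were called lower and 13.8% higher, 27.5% in all. The 7 probes belonged to 6 genes, the store proteins Hrc and Casq1, the pump regulator Pln, the release channel Ryr2, the junction protein Jph2 and the pump Atp2a2, the last by 1 of its 2 probes. Casq2, Sln and Slc8a1 did not pass the test. The median log2 fold change of the 11 probes was -0.72, and that of all tested probes was -0.005. In 8 of the 11 every hSRY-ON heart lay below every hSRY-OFF heart after normalization, and in 1, Casq2, every hSRY-ON heart lay above. Over all tested probes 21.6% were separated downward and 23.6% upward. The plot of intensities in each heart shows these values, and the plot of changes gives each estimate with its interval.

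**Figure D1:**
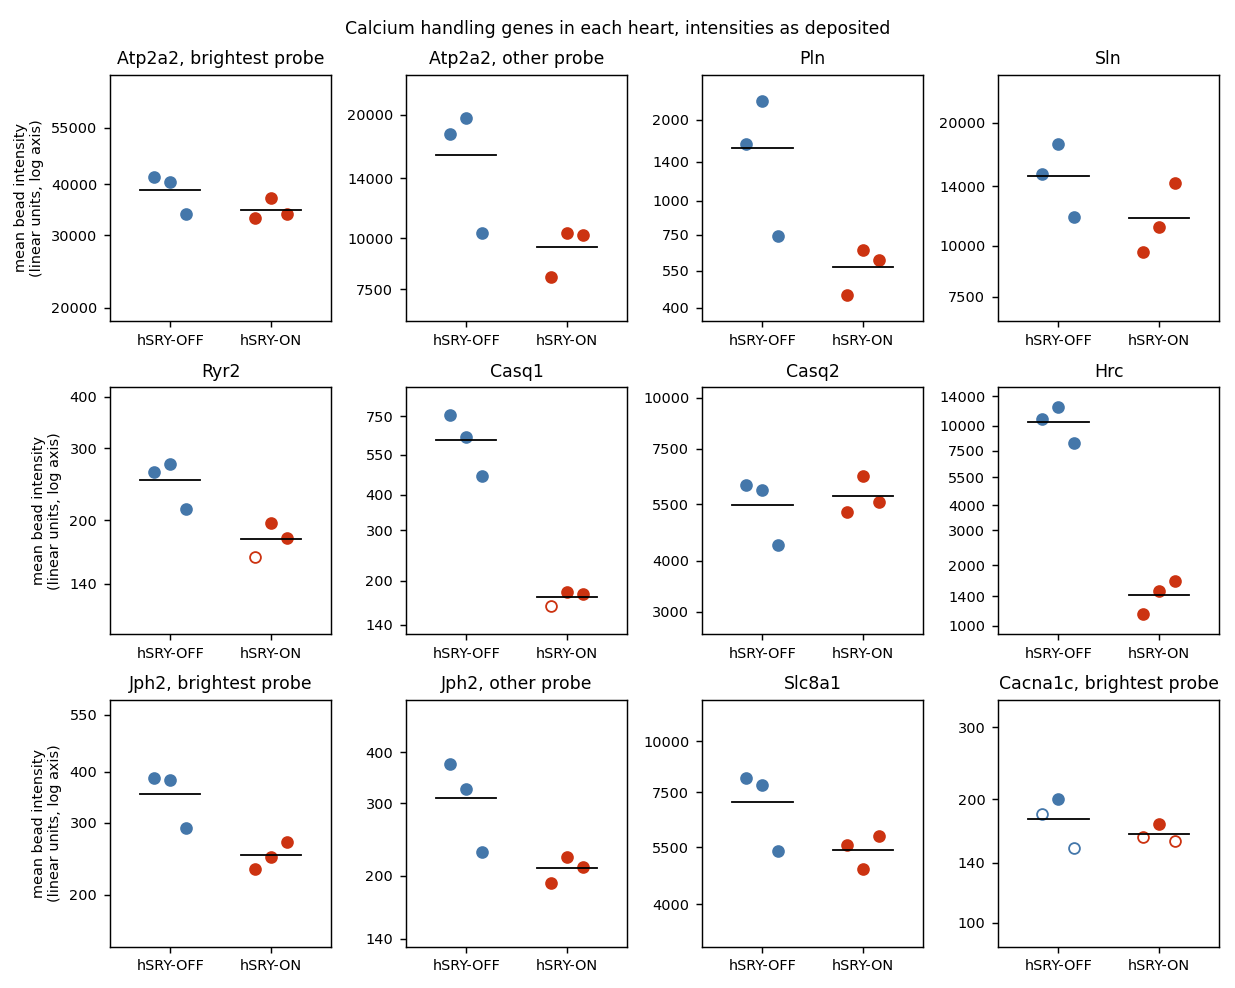
Mean bead intensity as deposited (linear units on a log axis with a scale of its own in each panel) for the 11 tested probes and the brightest Cacna1c probe in 3 hSRY-OFF (blue) and 3 hSRY-ON (red) hearts. Each point is a heart, in replicate order from left to right, open points were not detected, and the bar is the group mean. The hSRY-ON hearts lie far below the others for Hrc and Casq1, whereas the groups overlap for Casq2, Sln, Slc8a1, Cacna1c and the brightest Atp2a2 probe.

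**Figure D2:**
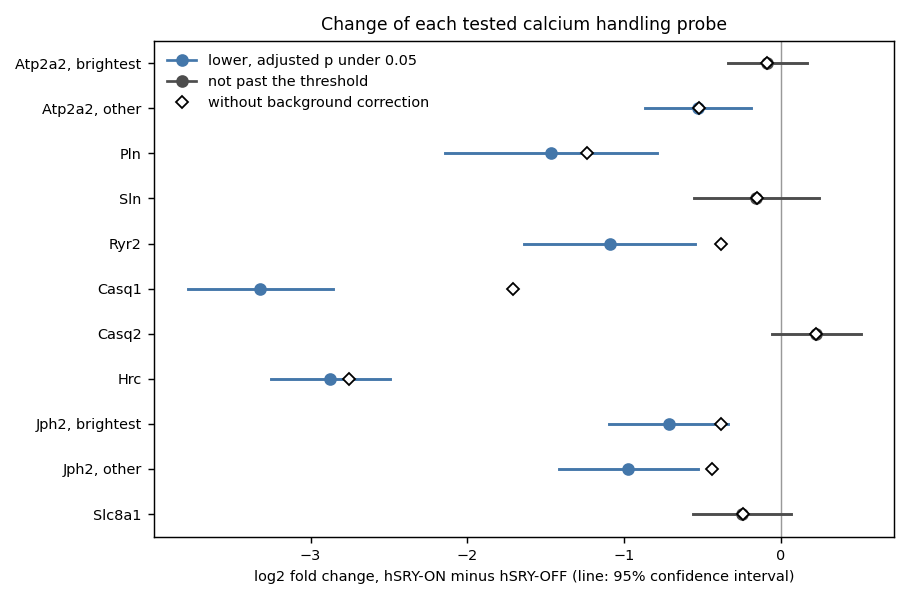
Log2 fold change of the 11 tested probes (hSRY-ON minus hSRY-OFF), with the 95% confidence interval from limma as a line and blue for the 7 probes called lower. Diamonds show the same estimate without background correction, which moves most toward 0 for Casq1, Ryr2 and both Jph2 probes.

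Some facts of the whole set bear on what follows. The arrays detected 47.2% to 51.3% of their probes, and hSRY-OFF replicate 3 had the lowest mean intensity, 631 against 723 to 939 on the others. The hSRY-ON replicate 1 array stood apart in Scgb1a1, a secretory protein of airway cells, with an intensity of 12500 against 137 to 268 on the other 5. Without that heart 5 of the 11 probes were called lower instead of 7, and without hSRY-OFF replicate 1 the number was also 5. Both times the 2 lost were the dimmer Atp2a2 probe and the brighter Jph2 probe. Of the marker lists for other cells, 5 of 7 tested macrophage genes, 2 of 6 of smooth muscle and pericytes, 3 of 7 of endothelium, 2 of 4 of brown fat, 1 of 7 of fibroblasts and 1 of 1 of liver were higher in hSRY-ON hearts, and 2 of 7 of endothelium, 1 of 5 erythroid and 1 of 3 thymus genes were lower. Over all 9660 genes tested by their brightest probe, 14.9% were higher and 13.9% lower, so the fibroblast count is near that share. In RNA from dissected hearts, fewer cells of a type and less RNA per cell cannot be told apart. The part of these other cells in the results was not tested.

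The store of the sarcoplasmic reticulum showed the largest differences among the members. Hrc encodes the histidine-rich calcium-binding protein, which holds calcium inside the store and contacts both the pump and the release complex. Its probe (ILMN_1259206) had intensities of 10722, 12400 and 8208 in the hSRY-OFF hearts and of 1137, 1487 and 1666 in the hSRY-ON hearts. The lowest control heart thus lay well above the highest hSRY-ON heart, and all 6 arrays detected the probe. The normalized log2 level was 13.26 ± 0.08 (SD, n = 3) in hSRY-OFF and 10.39 ± 0.29 (SD, n = 3) in hSRY-ON hearts. The level in hSRY-ON hearts was 13.7% of the control level, a log2 fold change of -2.87 ± 0.16 (SE) with a 95% confidence interval from -3.25 to -2.49 (limma adjusted p = 6.04e-05).

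Casq1 encodes the calsequestrin best known from fast skeletal muscle, a high-capacity calcium buffer of the store. Its probe (ILMN_2773330) read 758, 638 and 465 in hSRY-OFF and 163, 182 and 180 in hSRY-ON hearts. The groups did not overlap, and the hSRY-ON hearts lay near the array background, with detection on replicates 2 and 3 only. The normalized log2 level was 8.83 ± 0.23 (SD, n = 3) in hSRY-OFF and 5.51 ± 0.33 (SD, n = 3) in hSRY-ON hearts, a log2 fold change of -3.32 ± 0.20 (SE) (limma adjusted p = 7.28e-05). Without background correction the log2 fold change was -1.71, and it was still called (limma adjusted p = 9.32e-06).

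Since Casq1 is also a skeletal muscle gene, the other genes of that kind are given beside it. Of 7 tested skeletal muscle markers other than Casq1, 5 were lower and 1 was higher in hSRY-ON hearts. Acta1, the skeletal actin that the young heart also makes, had a log2 fold change of -3.25, and the fast troponin Tnni2 one of -1.91 (limma adjusted p = 0.000389 and 0.000559). On the normalized linear scale the 16 such genes on the array summed to between 3838 and 5417 in the controls, and to between 991 and 1205 in hSRY-ON hearts. Most of the gap was Acta1, since the other 15 genes summed to between 889 and 1035 in the controls and to between 708 and 747 in hSRY-ON hearts. Myh8 and Mylpf were detected on all 6 arrays. Myh8 and Myog were lower, with log2 fold changes of -1.42 and -0.56 (limma adjusted p = 0.0146 and 0.0225), and Mylpf did not pass (0.38, limma adjusted p = 0.0926). Pvalb was detected in all hSRY-OFF hearts and in no hSRY-ON heart, and was at least 1.42-fold lower (limma adjusted p = 0.00182). The defining genes of mature skeletal fibres Myh1, Myh2, Myh4, Tnnt3 and Tnnc2, and the myogenic factors Myod1 and Myf6, were detected on none of the 6 arrays. Actn3, another fast-fibre gene, was detected only in hSRY-ON hearts, where it was at least 3.10-fold higher than in hSRY-OFF (limma adjusted p = 0.000716).

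Casq2, the calsequestrin of cardiac muscle, did not follow its paralogue. Its probe (ILMN_1247775) read 6126, 5962 and 4366 in hSRY-OFF and 5274, 6436 and 5554 in hSRY-ON hearts, so that the intensities overlapped. After normalization each hSRY-ON heart lay above each hSRY-OFF heart, at 12.54 ± 0.11 (SD, n = 3) against 12.31 ± 0.10 (SD, n = 3) on the log2 scale. The log2 fold change was 0.23 ± 0.12 (SE), with a 95% confidence interval from -0.06 to 0.51, and it did not pass the test (limma adjusted p = 0.205). At the upper end of the interval the level would be 1.42 times that of the controls, and its lower end lies far from the changes of Hrc and Casq1. Within each array, Casq1 minus Casq2 was -3.48 ± 0.16 (SD, n = 3) on the log2 scale in hSRY-OFF and -7.03 ± 0.29 (SD, n = 3) in hSRY-ON hearts. The difference between the groups was -3.55, without overlap (exact two-sided permutation p = 0.1, the smallest that 3 against 3 hearts can give). Without background correction it was -1.93.

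The promoters of these store proteins were read for short motifs, as the factor switched on here binds DNA. Sequences came from the RefSeq promoter table of build GRCm38.p6, which holds 11 windows for 8 of the 10 members, with Atp2a2 and Sln not among them. Only the 250 bases upstream of each start site were searched, on both strands, for AACAAT (the core shared by SRY and SOX factors), a strict MEF2 pattern (a muscle factor; CTA and TAG with any 4 bases between them) and CATTCC (TEAD). A degenerate MEF2 site (a pyrimidine, TA, 4 bases of A or T, TA and a purine), which overlaps with the strict pattern, was added after the data had been seen. Strict and degenerate refer to the outer bases only. At the 4 central bases the strict pattern is the looser, since it allows any base there. Of all 32851 windows of that length, 9.42% hold AACAAT, 3.2% hold the strict MEF2 pattern, 2.92% hold the degenerate site and 12.6% hold CATTCC. Among the 11 member windows AACAAT was found in 1, at 1 of the 3 starts of Cacna1c, and the degenerate MEF2 site in 1, that of Casq2. The strict MEF2 pattern and CATTCC were in none of these windows. The windows of Hrc and Casq1, whose levels differed most, are printed with that of Casq2, whose level did not pass the test, and with the Cacna1c window. Capitals mark the degenerate MEF2 site in Casq2 and AACAAT in Cacna1c, and the windows of Hrc and Casq1 have no match and therefore no capitals.
Hrc chr7:45335019-45335268 (plus strand): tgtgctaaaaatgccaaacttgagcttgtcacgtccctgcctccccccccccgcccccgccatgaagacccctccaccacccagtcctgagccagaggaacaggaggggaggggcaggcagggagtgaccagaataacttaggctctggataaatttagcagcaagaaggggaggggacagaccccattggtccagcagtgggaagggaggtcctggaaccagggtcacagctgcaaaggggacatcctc
Casq1 chr1:172219896-172220145 (minus strand): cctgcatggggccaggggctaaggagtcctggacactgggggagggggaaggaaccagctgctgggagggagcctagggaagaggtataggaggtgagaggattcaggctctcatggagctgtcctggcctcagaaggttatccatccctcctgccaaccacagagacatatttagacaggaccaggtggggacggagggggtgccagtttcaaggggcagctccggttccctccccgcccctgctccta
Casq2 chr3:102086165-102086414 (plus strand): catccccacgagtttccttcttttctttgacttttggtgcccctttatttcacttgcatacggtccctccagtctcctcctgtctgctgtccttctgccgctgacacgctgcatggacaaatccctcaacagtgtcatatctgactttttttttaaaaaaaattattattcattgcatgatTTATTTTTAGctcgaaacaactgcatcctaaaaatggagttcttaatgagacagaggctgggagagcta
Cacna1c chr6:118757975-118758224 (minus strand): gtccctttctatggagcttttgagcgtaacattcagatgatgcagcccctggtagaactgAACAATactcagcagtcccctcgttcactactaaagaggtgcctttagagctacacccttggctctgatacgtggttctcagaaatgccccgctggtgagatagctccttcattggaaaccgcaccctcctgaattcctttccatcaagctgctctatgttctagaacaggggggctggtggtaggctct
A match describes letters only, and no match says only that these letters are not in the window.

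Ryr2, the channel through which the cardiac store releases calcium, had a dim probe (ILMN_1242706). It read 262, 275 and 213 in hSRY-OFF and 162, 197 and 181 in hSRY-ON hearts, where replicate 1 was not detected. The groups did not overlap, although the gap between the lowest control and the highest hSRY-ON heart was small against the background. The normalized log2 level was 6.74 ± 0.17 (SD, n = 3) in hSRY-OFF and 5.64 ± 0.47 (SD, n = 3) in hSRY-ON hearts, a log2 fold change of -1.09 ± 0.24 (SE) (limma adjusted p = 0.0125). Without background correction it was -0.38 and still called (limma adjusted p = 0.0132).

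At the pump, Pln changed most. Pln encodes phospholamban, which slows SERCA until it is phosphorylated, and its probe (ILMN_2854828) read 1632, 2361 and 740 in hSRY-OFF and 447, 659 and 601 in hSRY-ON hearts. The groups did not overlap, but the controls varied widely among themselves, with the dimmest array, hSRY-OFF replicate 3, close to the hSRY-ON hearts. The normalized log2 level was 10.28 ± 0.56 (SD, n = 3) in hSRY-OFF and 8.82 ± 0.33 (SD, n = 3) in hSRY-ON hearts. The level in hSRY-ON hearts was 36.2% of the control level, a log2 fold change of -1.47 ± 0.29 (SE) with a 95% confidence interval from -2.14 to -0.79 (limma adjusted p = 0.00908).

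Atp2a2, the gene of SERCA itself, was among the brightest on the arrays, and its 2 probes did not give the same result. The brighter (ILMN_1245425) read 41624, 40590 and 33905 in hSRY-OFF and 33035, 37138 and 33873 in hSRY-ON hearts, which overlapped. These values were 74.1% to 86.6% of the highest intensity on their array, and the probe ranked between 8 and 16 of 25697. It was the only member probe above 50% of that maximum, where an intensity may no longer follow the amount of RNA. Quantile normalization gives it, like every probe, the value of its rank. Its log2 fold change was -0.09 ± 0.11 (SE), with a 95% confidence interval from -0.34 to 0.17 (limma adjusted p = 0.59). Scaling by the median of detected probes turned its sign (0.06), and so did scaling with likely unchanged genes only (0.03).

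The dimmer Atp2a2 probe (ILMN_1239742) lay between 18.0% and 40.9% of the array maximum. It read 17918, 19620 and 10312 in hSRY-OFF and 8027, 10308 and 10173 in hSRY-ON hearts. Before normalization hSRY-OFF replicate 3 stood almost level with the highest hSRY-ON heart, whereas the normalized groups were clearly apart, at 13.81 ± 0.14 and 13.28 ± 0.19 (SD, n = 3 each). The log2 fold change was -0.53 ± 0.15 (SE), 69.4% of the control level, with a 95% confidence interval from -0.87 to -0.19 (limma adjusted p = 0.0324). This call was lost without normalization between arrays, with scaling by the median and without hSRY-OFF replicate 1, hSRY-OFF replicate 2 or hSRY-ON replicate 1 (limma adjusted p from 0.0599 to 0.111). Among all tested probes the share called in either direction was 44.6% of the 327 whose highest reading was 20% to 50% of an array's maximum and 37.7% of the 122 above it.

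Sln encodes sarcolipin, the regulator of SERCA that prevails in the atria. Its probe (ILMN_2918875) read 14959, 17781 and 11773 in hSRY-OFF and 9657, 11139 and 14204 in hSRY-ON hearts, which overlapped before and after normalization. The log2 fold change was -0.16 ± 0.17 (SE), with a 95% confidence interval from -0.56 to 0.24 (limma adjusted p = 0.536). Since the share of atrium in a dissected heart can move this gene, atrial markers are given beside it. Of 8 tested atrial genes other than Sln, 2 were lower in hSRY-ON hearts (Myl4, Kcnj3) and 3 were higher (Bmp10, Tbx5, Dkk3). The 9 such genes on the array, with Pam detected on none, summed to between 83763 and 84999 in the controls and to between 66951 and 85972 in hSRY-ON hearts. The brightest of them, Nppa, had normalized log2 levels of 15.28 in hSRY-OFF and 15.42 in hSRY-ON hearts, above the brighter Atp2a2 probe, which limits what the sum can show. Pln was also set against Atp2a2 and Sln on the same array. Pln minus the brighter Atp2a2 probe was -4.93 ± 0.58 (SD, n = 3) on the log2 scale in hSRY-OFF and -6.31 ± 0.32 (SD, n = 3) in hSRY-ON hearts, a difference of -1.38. Sln minus Pln was 3.45 ± 0.58 in hSRY-OFF and 4.76 ± 0.25 in hSRY-ON hearts (SD, n = 3 each), a difference of 1.31. Since the brighter Atp2a2 probe lies near the top of the scale, the dimmer one was used as well, an alternative chosen after seeing the data. Pln minus that probe was -3.52 ± 0.43 in hSRY-OFF and -4.46 ± 0.14 in hSRY-ON hearts (SD, n = 3 each), a difference of -0.94 without overlap (exact two-sided permutation p = 0.1). In the first 2 relations the groups did not overlap, and each had the smallest p possible (exact two-sided permutation p = 0.1, and 0.133 after Benjamini-Hochberg adjustment over the 4 pairs compared). These are contrasts of how values moved and not ratios of RNA, since different probes are not on a common scale.

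Of the genes for entry, extrusion and the junction, Jph2 changed. Jph2 encodes junctophilin 2, which bridges the T-tubule and the store, and was read by a pair of dim probes. The brighter (ILMN_2628876) read 385, 382 and 291 in hSRY-OFF and 232, 247 and 269 in hSRY-ON hearts. The other (ILMN_2628875) read 374, 326 and 229 in hSRY-OFF and 192, 222 and 210 in hSRY-ON hearts. Both pointed the same way, and neither showed overlap. The log2 fold changes were -0.72 ± 0.16 and -0.97 ± 0.19 (SE) (limma adjusted p = 0.0157 and 0.0085), or 60.9% and 50.9% of the control level. Without background correction they were -0.38 and -0.44 and still called. For the brighter probe the call was lost without hSRY-OFF replicate 1 or hSRY-ON replicate 1 (limma adjusted p = 0.052 and 0.057).

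Slc8a1 encodes the sodium/calcium exchanger, the main route by which calcium leaves the myocyte. Its probe (ILMN_2756030) read 8129, 7794 and 5391 in hSRY-OFF and 5565, 4867 and 5848 in hSRY-ON hearts. The intensities overlapped through hSRY-OFF replicate 3, and the normalized values did not. The log2 fold change was -0.25 ± 0.14 (SE), with a 95% confidence interval from -0.56 to 0.07, and did not pass the test (limma adjusted p = 0.213). Against the brighter Atp2a2 probe on the same array it differed by -0.16 between the groups, with overlap (exact two-sided permutation p = 0.2). Against the dimmer Atp2a2 probe, which was added after seeing the data, the difference had the other sign, at 0.28 and with overlap (exact two-sided permutation p = 0.3).

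Cacna1c, the pore-forming subunit of the L-type channel, could not be compared. Of its 4 probes, ILMN_2677449 was detected on hSRY-OFF replicate 2 and hSRY-ON replicate 2 only, and the other 3 on no array. Their intensities lay between 127 and 201, and the medians of the 6 arrays between 156 and 201. This channel is a defining gene of the working myocyte, and these probes were not well above background although the cardiomyocyte markers were bright on the same arrays.

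To see whether the differences went with the amount of cardiac muscle RNA as a whole, each value was set against the mean of 9 cardiomyocyte markers on the same array. That mean itself was 13.43 ± 0.13 (SD, n = 3) in hSRY-OFF and 13.21 ± 0.10 (SD, n = 3) in hSRY-ON hearts, a difference of -0.22 on the log2 scale. Of the 9 markers, 3 were lower (Tnni3, Myh6, Mybpc3) and 1 was higher (Nkx2-5), and of 7 ventricular markers 3 were lower and 1 was higher. Relative to the mean, Casq1 differed by -3.10 between the groups, Hrc by -2.65, Pln by -1.25 and Ryr2 by -0.87. The differences of the Jph2 probes were -0.50 and -0.75, and that of the dimmer Atp2a2 probe was -0.31. In these 7 probes every hSRY-ON heart lay below every hSRY-OFF heart, each with the smallest p that 3 against 3 hearts allow (exact two-sided permutation p = 0.1, and 0.138 after Benjamini-Hochberg adjustment over the 11 probes). Casq2 lay above, by 0.45 and without overlap (exact permutation p = 0.1). Sln, Slc8a1 and the brighter Atp2a2 probe overlapped, with differences of 0.06, -0.03 and 0.13. Of the 9 markers, 5 exceeded 50% of the maximum on at least 1 array (Tnnc1, Actn2, Myh6, Mybpc3, Ttn). Against the mean of the other 4, chosen after seeing the data, the same 7 probes were lower without overlap, by -0.35 (the dimmer Atp2a2 probe) to -3.14 (Casq1), while Casq2 differed by 0.40 with overlap (exact two-sided permutation p = 0.2). How often all tested probes separate on these relative scales was not computed. On the normalized scale itself 21.6% of them were separated downward and 23.6% upward. Without background correction the difference of Ryr2 was -0.17 and those of Jph2 were -0.17 and -0.23, all with overlap.

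**Figure D3:**
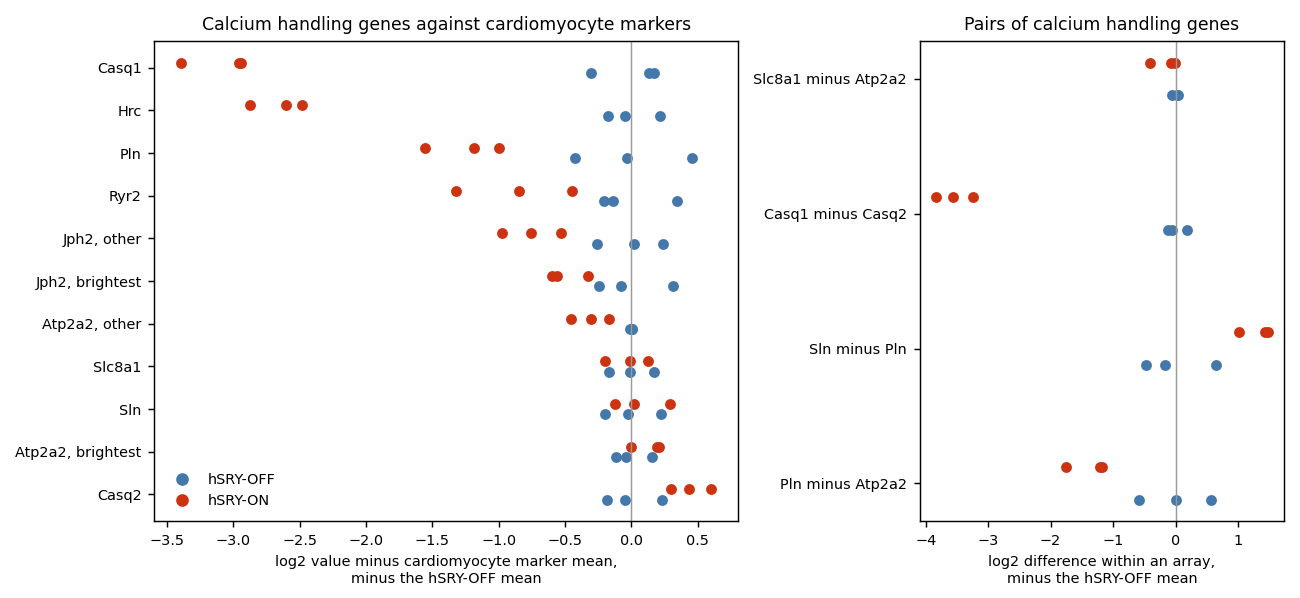
Left, the 11 tested probes relative to the mean of 9 cardiomyocyte markers on the same array, and right, 4 pairs of calcium handling genes, with Atp2a2 by its brighter probe. Points are hearts (blue hSRY-OFF, red hSRY-ON) on the log2 scale, with the hSRY-OFF mean set to 0. Casq1 and Hrc lie 3.10 and 2.65 below it on average, Casq2 lies 0.45 above it, and Slc8a1 and Sln overlap with the controls.

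The other genes of calcium handling were taken from 7 lists of 104 genes, of which 93 were on the array and 75 were tested by their brightest probe. Of these 75, 19 were lower and 15 were higher in hSRY-ON hearts (limma adjusted p under 0.05), with a median log2 fold change of -0.14. Over all 9660 genes tested the same way, 13.9% were lower and 14.9% higher, and the median was 0.003. The counts of single lists given below stand against these shares, and in lists this small several are near them. Among the 75 genes, the count of higher ones depended on the setting. It was 5 when the arrays were not normalized to each other and 7 without hSRY-OFF replicate 1 or replicate 2. It was 8 without hSRY-ON replicate 1 and 9 without hSRY-ON replicate 3. Without hSRY-OFF replicate 1 the count of lower genes was 12.

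Among partners of Cacna1c and Jph2 at the cell membrane and T-tubule, 5 of 13 genes were lower and 2 were higher. Tcap, a titin-binding protein that also ties the T-tubule to the sarcomere, had a log2 fold change of -3.10 ± 0.32 (SE), and Rrad, a small GTPase that restrains the L-type channel, one of -1.18 ± 0.28 (SE) (limma adjusted p = 0.000748 and 0.0199). The call of Rrad was lost without hSRY-OFF replicate 1 or replicate 2. The T-type channels went in opposite directions. Cacna1g was detected in all hSRY-OFF hearts and in no hSRY-ON heart and was at least 4.89-fold lower (limma adjusted p = 0.000182), a bound that holds for background-corrected values. Its log2 fold change without background correction was -1.02 (limma adjusted p = 0.000159). Cacna1h rose by 2.24 ± 0.13 log2 units (SE), 4.72-fold (limma adjusted p = 7.28e-05), and the auxiliary subunit Cacna2d1 rose by 1.04 ± 0.20 (SE) (limma adjusted p = 0.00766).

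Of the partners of Ryr2 and the store proteins, 2 of 13 were lower and 5 were higher. Over all genes 13.9% were lower and 14.9% higher, so the count of lower partners is near that share. Asph, whose short product junctin ties calsequestrin to the release channel, had a log2 fold change of -2.46 at its brightest probe (limma adjusted p = 0.000127), but the other 8 tested probes of this gene lay between -0.53 and -0.24, with 1 of them called. Tmem38a, a potassium channel of the store that supports calcium release, had a log2 fold change of -0.81 ± 0.17 (SE). The minor ryanodine receptor Ryr3 rose by 2.51 ± 0.25 log2 units (SE), 5.69-fold (limma adjusted p = 0.000589), opposite to Ryr2. Itpr1, the inositol trisphosphate receptor, rose by 0.75 ± 0.15 and Tmem38b by 0.74 ± 0.14 (SE), the latter by 1 of its 2 probes (limma adjusted p = 0.0107 and 0.00727). Both calls were lost without normalization between arrays. Of 4 other genes of the pump and its regulators only Ppp1r1a, the inhibitor 1 of protein phosphatase 1, passed the test, with a log2 fold change of 0.92 ± 0.15 (SE) (limma adjusted p = 0.00446).

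Around Slc8a1, 3 of 8 genes of calcium extrusion and sodium balance were lower and 2 were higher. The sodium pump works beside the exchanger, since the sodium gradient drives it. Fxyd1 (phospholemman, which restrains that pump) had a log2 fold change of -1.01 ± 0.15 (SE), and the beta subunit Atp1b2 one of -0.79 ± 0.14 (SE) (limma adjusted p = 0.00282 and 0.0064). The other Fxyd1 probe, at -0.98, did not pass (limma adjusted p = 0.0599). The bright beta subunit Atp1b1 passed narrowly, with 0.44 (limma adjusted p = 0.035), and its call was lost with cyclic loess, with scaling by likely unchanged genes, without normalization, with the replicate block and without any of 5 of the 6 hearts (limma adjusted p from 0.0535 to 0.688).

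Of 9 mitochondrial calcium genes, 2 were lower and 1 was higher, counts near the shares over all genes (13.9% lower and 14.9% higher). Letm1 and Vdac1 had log2 fold changes of -0.58 and -0.51 (limma adjusted p = 0.0126 and 0.0132), and both calls were lost without normalization between arrays and without hSRY-OFF replicate 1. The Letm1 call was also lost with scaling by the median and without hSRY-ON replicate 1, and it rested on 1 of its 2 tested probes. Of 22 calcium-sensing kinases and phosphatases, 6 were lower and 2 were higher, and the count of higher genes does not exceed the share over all genes. Subunits of CaM kinase II, which phosphorylates phospholamban and the ryanodine receptor, were among the lower, with Camk2a at -0.996 ± 0.217 and Camk2d at -0.663 ± 0.124 (SE, log2 fold change), as was the calcineurin inhibitor Rcan1 at -0.91 ± 0.24 (SE) (limma adjusted p = 0.013, 0.00721 and 0.0275). Of the 4 tested Camk2d probes 2 were called. The log2 fold changes of the other subunits Camk2b and Camk2g were -0.14 and -0.32 and did not pass. The Rcan1 call was lost without hSRY-OFF replicate 1, hSRY-OFF replicate 3 or hSRY-ON replicate 1, and that of Camk2d without normalization between arrays. Ppp1r1b, an inhibitor of protein phosphatase 1, rose by 3.87 ± 0.24 log2 units (SE), 14.6-fold (limma adjusted p = 8.01e-05), with 2 of its 3 tested probes called. Ppp3ca, the calcineurin subunit, had a log2 fold change of 0.54 by 1 of its 2 probes (limma adjusted p = 0.0393), and this call was lost without any of 5 of the 6 hearts. Of 6 genes of store-operated entry, 1 was lower and 2 were higher, again near the shares over all genes. Orai1 had a log2 fold change of 0.65 ± 0.15 and Trpc1 of 0.42 ± 0.13 (SE) (limma adjusted p = 0.0163 and 0.0499). The Trpc1 probe was detected in 1 hSRY-OFF heart, and its call was lost in most other settings. The Orai1 call was lost without normalization between arrays, with the replicate block and without hSRY-OFF replicate 1 or replicate 2. Without background correction the log2 fold changes of Ryr3 and Camk2a were 1.41 and -0.65 and still called.

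**Figure D4:**
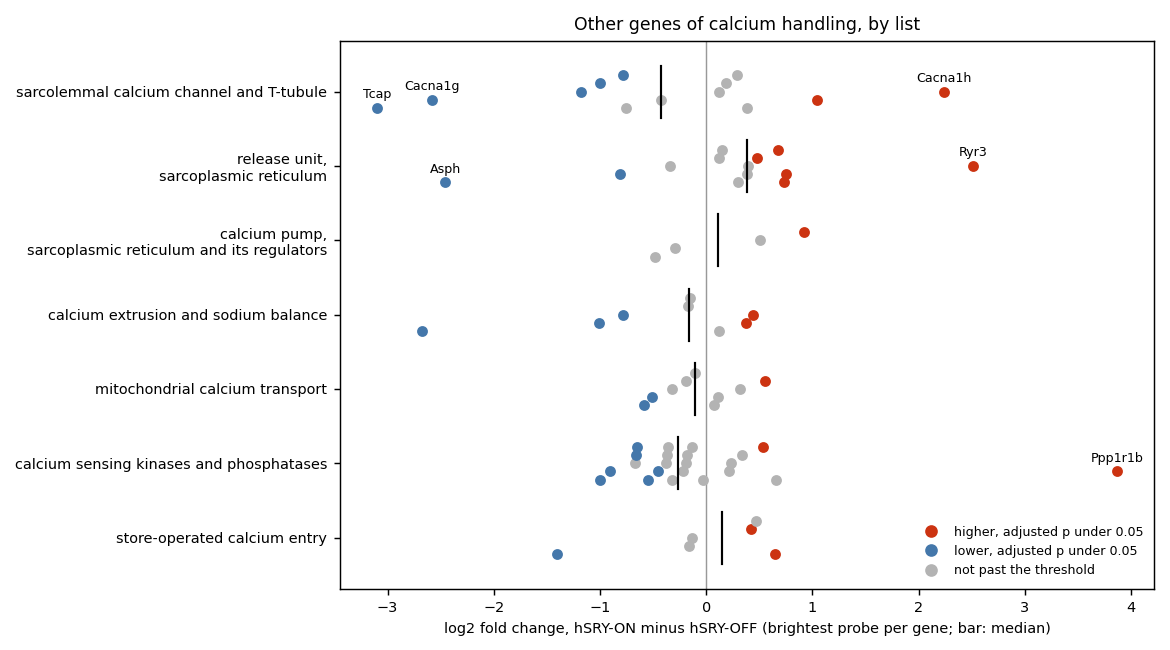
Log2 fold change (hSRY-ON minus hSRY-OFF, brightest probe) of the 75 other tested genes of calcium handling in 7 lists, each point a gene, with a black bar at the median of the list and names on some of the called genes. The 19 lower (blue) and 15 higher (red) genes occur side by side in most lists, with Tcap at -3.10 and Ppp1r1b at 3.87.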

How the data were processed

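Total RNA of 3 hSRY-ON and 3 hSRY-OFF hearts was hybridized to MouseRef-8 BeadChips, with groups and replicate numbers taken from the sample labels. The table the authors deposited holds the average bead intensity per probe and array, on a linear scale and not normalized. It also holds deposited detection p-values, which compare each probe with the background of its array. The bead summary software is not given in the sources used here. The submitters' processing notes name limma, and the methods name the R package TCC for normalization and for differential expression. Here limma was used, and TCC was not applied to these intensities.

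From the intensities, neqc in limma 3.58.1 (R 4.3.3) inferred the background from the detection p-values, subtracted it by the normal-exponential model, added an offset of 16, quantile normalized and took log2. Such a correction widens differences of dim probes, and quantile normalization ties every probe, the brightest included, to its rank. Probes detected (p under 0.05) on at least 3 of 6 arrays entered a linear model of the group (lmFit, eBayes), and p-values were adjusted by the Benjamini-Hochberg method. Within-array differences were compared by exact permutation. Genes were taken by their brightest probe unless said otherwise. Folds of probes that no array of a group detected are lower bounds. The steps were tested on simulated data. Figures used Python 3.11.15 and matplotlib 3.10.9.

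The members, the 7 calcium lists and the marker lists were chosen with earlier results of these data known. All members are named by every probe, and of each calcium list up to 3 called genes in each direction without overlap between groups, and of the marker lists the genes a result turns on. Single results of some listed genes are not reported here. Depth is signal over background, and the 3 arrays per group limit the precision. No source says more of the replicates than that they are biological. The limma p-values set a group difference against the spread between these hearts, moderated over all tested probes. Other background corrections, normalizations, filters, fits and leaving out each heart were tried.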

Additional observations from a re-analysis of the deposited data

How the results depend on the processing

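Over all alternatives tried, the number of calcium handling probes called lower was 5 to 7 and the number called higher 0. The probes tested were 11, except for 9 when detection on all 6 arrays was required and 15 without a probe filter. Hrc, Casq1, Pln, Ryr2 and the dimmer Jph2 probe were called lower in every setting in which they were tested. Casq1 and Ryr2 were not tested when detection on all 6 arrays was required. The dimmer Atp2a2 probe was also lost with the replicate number as a block (log2 fold change -0.53, limma adjusted p = 0.0709). The brighter Atp2a2 probe changed sign with median scaling (0.0578) and with scaling by likely unchanged genes (0.0312).

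Of the wider calcium genes, the 15 higher became 5 without normalization between arrays and 8 with the replicate block. Leaving out each heart in turn gave 12 to 23 lower, 7 to 16 higher and 5 to 7 member probes lower. The difference relative to cardiomyocyte markers ranged from -0.0517 to 0.169 for Sln and from -0.107 to 0.0582 for Slc8a1 when hearts were left out, so neither has a settled sign. Slc8a1 minus Atp2a2 turned from -0.16 to 0.28 with the dimmer Atp2a2 probe, an alternative chosen after seeing the data. Without normalization the median of all probes was -0.12 and 38.5% of the calls were upward, against 50.1% as reported, 65.7% with median scaling and 59.1% with scaling by likely unchanged genes. Deviations of same-numbered hearts correlated at -0.02, 0.04 and -0.07, and those of differently numbered hearts between -0.063 and 0.0931. No shared effect of the replicate number was visible, but so few values cannot tell whether same-numbered hearts were paired. The block lowered the number of calls from 3567 to 2842, which fitting more terms to so few hearts can do by itself. Calls near the threshold among dim probes, where background correction sets the size, are limited most by signal over background.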
